A study of Homo sapiens with 6 samples.

Results

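The genes described here are the 38 genes of glycolysis and of the response to low oxygen that were listed by name and had a mean of 10 or more normalized read counts over the 6 libraries. All 38 listed genes passed that level, out of 19575 genes that passed it and 34114 in the table. They comprise 18 glycolytic enzymes, 3 transporters of glucose and lactate, 3 regulators of glycolytic flux, 13 hypoxia-induced genes with no enzymatic step in glycolysis, and HIF1A. Messenger RNA was read by RNA-seq in 3 human acute myeloid leukemia lines, MOLM-14, NOMO-1 and SKM-1, of which MOLM-14 and NOMO-1 carry a fusion of the KMT2A gene. Each line was taken 72 h after transfection with a control shRNA (scrambled, per the series text) or with an shRNA against NCAM1, which encodes the adhesion molecule CD56. There was 1 library per line and condition, giving 3 control and 3 knockdown libraries, so each line stands as 1 replicate of the knockdown and no line has a replicate of its own. Each group thus holds 3 cell lines, not repeated cultures of 1 line, and whether the same hairpin served in all 3 lines is not known here.

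Glycolysis splits glucose into pyruvate in the cytosol and yields ATP without oxygen, and lactate dehydrogenase turns pyruvate into lactate so that the pathway can go on. When oxygen is low, the hydroxylases that mark HIF1A for destruction slow down, the protein accumulates, pairs with ARNT and binds DNA at sites with the core ACGTG or GCGTG. Its targets include most glycolytic enzymes, glucose transporters, blood vessel growth factors, mitophagy receptors and the hydroxylases themselves. HIF1A is regulated mostly at the protein level, so its messenger RNA is not a measure of its activity.

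Below, pairs of numbers are normalized counts in the control and the knockdown library of a line. A log2 change is that of log2(normalized count + 1), which understates the change of low genes, and SE and p come from limma unless another test is named. Gene-assigned reads numbered 41916991 to 47688779 per library. NCAM1 itself went from 6004 to 1896 in MOLM-14, from 1163 to 312 in NOMO-1 and from 12537 to 101 in SKM-1, with a mean log2 change of -3.50 ± 2.98 (n = 3 lines, SD; limma SE 1.12, unadjusted p = 0.0279). The pan-leukocyte gene PTPRC (14053 to 23654 normalized counts) and the myeloid factor SPI1 (4790.5 to 9577) were present in all 6 libraries, while the monocyte receptor CD14 did not pass 27.4. The 2 SKM-1 libraries stood far apart: MPO, the myeloperoxidase of primary granules, was at 728824 in the control and 6166 in the knockdown. In that line 14.9% of all genes with 100 or more normalized counts in 1 of its libraries were at least 2-fold lower and 13.9% at least 2-fold higher. The summed level of 13 myeloid markers ran from 36382 to 768715, the lowest in the MOLM-14 knockdown and the highest in the SKM-1 control. Of marker lists for other cells, 9 T and NK cell genes summed to 789 to 6077, 5 B cell genes to 119 to 2269, 3 erythroid genes to 163 to 1155, and 7 stromal and epithelial genes to 394 to 3579. Levels within these lists varied widely. The globin gene HBB stayed at or below 3.05 and collagen COL3A1 at or below 2.75, but EPOR of the erythroid list was at 157 to 1131. CD3D reached 3789 in the NOMO-1 control, and KRT8 2961 and MS4A1 1988 in the NOMO-1 knockdown. PAX5 reached 1194 in the MOLM-14 control and EPCAM 1203 in the SKM-1 knockdown. The part of these differences in the results below was not tested. In bulk RNA, fewer cells that express a gene and less RNA per cell cannot be told apart.

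The main comparison was NCAM1 knockdown over control across the 3 lines. Most glycolysis and hypoxia genes had lower RNA levels in the knockdown libraries. The genes were listed with earlier results of these data known, so their counts beside all tested genes are descriptions. The mean log2 change was below 0 for 34 of 38 genes, against 50.6% of all tested genes, and 24 of 38 were lower in each of the 3 lines, against 15.9%. Lower here means any log2 change below 0. Among the 24, PFKP, ENO3 and ANKRD37 in MOLM-14, and ENO3 in NOMO-1, were lower only within the error of read counting. CA9 had too few reads in SKM-1 to compare. None of the 38 was higher in each line, against 14.6% of all tested genes. The median of the 38 mean log2 changes was -0.54, beside -0.0072 over all tested genes. For 9 of the 38, every knockdown library lay below every control library whatever the line, as for 2.3% of all tested genes. These 9 were SLC2A1, GPI, PGK1, PGAM1, ENO1, PFKFB4, PDK1, NDRG1 and P4HA1.

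No gene of the 38, and none of the 19575 tested (0.0%), passed an adjusted p of 0.05 in limma with the cell line as a block. The adjusted p values of the 38 ran from 0.779 to 0.999. At an unadjusted p under 0.05 there were 17 of the 38, all lower, against 4.48% of all genes in either direction and 2.89% lower. This count was 3 of the 38 without the NOMO-1 pair and 6 with no block. The 38 genes share the same 3 pairs of libraries and are not independent, so these counts too are descriptions. On the recovered read counts, edgeR's quasi-likelihood fit called 0 of the 38 and 0.0% of all genes, with 14 of the 38 at an unadjusted p under 0.05 against 4.41%. DESeq2 on these reads called 4 of the 38, all lower: ENO2, ALDOC, VEGFA and PFKFB4 (adjusted p = 0.00624, 0.0105, 0.0105 and 0.0258), against 0.208% of genes with an adjusted p called lower and 0.279% in either direction. These p values rest on the spread between 3 lines, moderated with that of other genes. In limma the prior from other genes carried 2.81 degrees of freedom beside 2 residual ones.

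**Figure D1:**
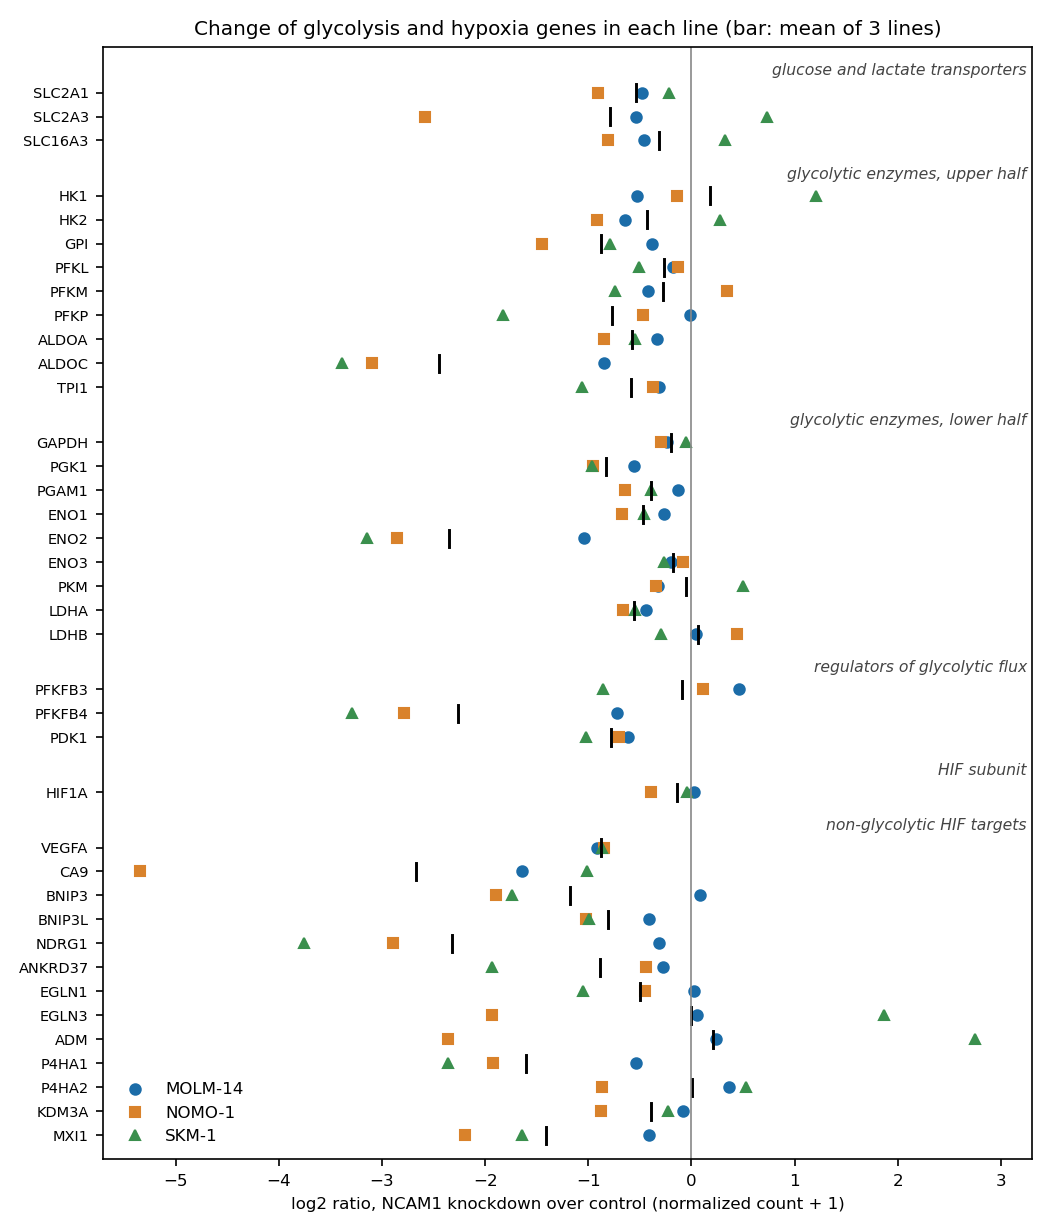
Log2 ratio of knockdown over control (horizontal axis) for each of the 38 genes (rows, by role), with 1 symbol per line and a bar at the mean of the 3 lines. Most symbols lie left of 0; ENO2, ALDOC, PFKFB4, NDRG1 and P4HA1 are far left in NOMO-1 and SKM-1 and nearer 0 in MOLM-14, and ADM lies on both sides.

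Sugar enters through SLC2A1 and SLC2A3, and lactate leaves through SLC16A3. SLC2A1, the widespread glucose transporter GLUT1, went from 3021 to 2170.3 in MOLM-14, from 2685 to 1429 in NOMO-1 and from 2233 to 1919 in SKM-1, a mean log2 change of -0.54 ± 0.35 (n = 3 lines, SD; limma SE 0.21, unadjusted p = 0.0523). It was lower in each line and all 3 knockdown libraries were below all 3 controls. SLC2A3, the high-affinity transporter GLUT3, went from 18512 to 12769 in MOLM-14, from 7264 to 1216 in NOMO-1 and from 3490.2 to 5795 in SKM-1. SLC2A3 was thus 5.97-fold lower in NOMO-1 (95% counting interval 5.63 to 6.34) but 1.66-fold higher in SKM-1 (95% counting interval 1.59 to 1.73), and whether it shares reads with its near-identical neighbour SLC2A14 was not tested. SLC16A3, which exports lactate, had log2 changes of -0.46, -0.81 and 0.33 (MOLM-14, NOMO-1, SKM-1). Of the 3 transporters, SLC2A1 alone was lower in all 3 lines.

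Among the 9 enzymes from hexokinase to triosephosphate isomerase, 6 were lower in each line, and the median change was -0.58. ALDOC, the aldolase form best known from brain, had the lowest mean of the 18 enzymes. It went from 6157 to 3428 in MOLM-14, from 13644 to 1592 in NOMO-1 and from 2537 to 242 in SKM-1. This was 1.796-fold lower in MOLM-14 (95% counting interval 1.72 to 1.88), 8.57-fold lower in NOMO-1 (95% counting interval 8.15 to 9.01) and 10.5-fold lower in SKM-1 (95% counting interval 9.22 to 11.9), a mean log2 change of -2.44 ± 1.39 (n = 3 lines, SD; limma SE 0.54, unadjusted p = 0.00698). Counting intervals cover counting error only. GPI, which turns glucose 6-phosphate into fructose 6-phosphate, went from 38409.8 to 29462 in MOLM-14, from 34619.9 to 12714 in NOMO-1 and from 52981 to 30595 in SKM-1, a change of -0.87 ± 0.54 (n = 3 lines, SD; limma SE 0.24, unadjusted p = 0.0166). The lowest control value of GPI was above its highest knockdown value. The ubiquitous aldolase ALDOA, far more abundant than ALDOC, went from 98668 to 78224 in MOLM-14, from 77071 to 42835 in NOMO-1 and from 84838 to 58189 in SKM-1, a change of -0.58 ± 0.26 (n = 3 lines, SD; limma SE 0.17, unadjusted p = 0.0195). TPI1, triosephosphate isomerase, was at -0.32, -0.37 and -1.06 (MOLM-14, NOMO-1, SKM-1), a mean of -0.58 ± 0.42 (n = 3 lines, SD; limma SE 0.21, unadjusted p = 0.0403). The platelet-type phosphofructokinase PFKP was at -0.02, -0.47 and -1.82 (MOLM-14, NOMO-1, SKM-1), a mean of -0.77 ± 0.94 (n = 3 lines, SD; limma SE 0.38, unadjusted p = 0.102), so its mean rests on SKM-1: without that pair it was -0.24. In MOLM-14 the PFKP ratio of knockdown over control was 0.989 (95% counting interval 0.951 to 1.029), which includes no change. The liver-type PFKL was lower in each line by little, with a mean of -0.27 ± 0.20. The muscle-type PFKM had log2 changes of -0.43, 0.34 and -0.74 (MOLM-14, NOMO-1, SKM-1). The hexokinases trap glucose by phosphorylation. HK1 went from 2731 to 1893 in MOLM-14, from 4235 to 3834 in NOMO-1 and from 4604 to 10598 in SKM-1, and HK2 from 10674 to 6852 in MOLM-14, from 11574 to 6118 in NOMO-1 and from 6682 to 8114 in SKM-1. Both were lower in MOLM-14 and NOMO-1 and higher in SKM-1.

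Among the 9 enzymes from GAPDH to lactate dehydrogenase, 7 were lower in each line, with a median of -0.39. ENO2, the neuron-type enolase, had the lowest mean of the 9. It went from 2915 to 1412 in MOLM-14, from 3138 to 433 in NOMO-1 and from 1319 to 149 in SKM-1, which was 2.06-fold lower in MOLM-14 (95% counting interval 1.93 to 2.21), 7.24-fold lower in NOMO-1 (95% counting interval 6.58 to 7.99) and 8.87-fold lower in SKM-1 (95% counting interval 7.53 to 10.5). Its mean log2 change was -2.35 ± 1.14 (n = 3 lines, SD; limma SE 0.46, unadjusted p = 0.00421). PGK1, which makes the first ATP of the pathway, went from 47219 to 32061 in MOLM-14, from 65855 to 33981 in NOMO-1 and from 50674 to 25942 in SKM-1, a change of -0.83 ± 0.23 (n = 3 lines, SD; limma SE 0.16, unadjusted p = 0.00422). Its SD was small beside its mean, and the control and knockdown libraries did not overlap. LDHA, the lactate dehydrogenase form favoured in hypoxia, went from 69557 to 51208 in MOLM-14, from 56795 to 35742 in NOMO-1 and from 43827 to 29956 in SKM-1, a change of -0.55 ± 0.11 (n = 3 lines, SD; limma SE 0.14, unadjusted p = 0.0128). LDHB, its paralog, had log2 changes of 0.05, 0.45 and -0.29 (MOLM-14, NOMO-1, SKM-1) and a mean of 0.07 ± 0.37. ENO1, the main enolase, had the highest mean level of the 38 per kilobase of transcript over the 6 libraries, though GAPDH was higher in both MOLM-14 libraries. ENO1 went from 153509 to 127599.8 in MOLM-14, from 180748 to 113145 in NOMO-1 and from 147211 to 107102 in SKM-1, a change of -0.47 ± 0.20 (n = 3 lines, SD; limma SE 0.16, unadjusted p = 0.0323). PGAM1, phosphoglycerate mutase, was lower in each line with a mean of -0.39 ± 0.25. GAPDH and the muscle-type enolase ENO3 were lower in each line by less (-0.20 ± 0.12 and -0.18 ± 0.09). For ENO3 the 95% counting interval of knockdown over control included no change in MOLM-14 (0.757 to 1.0001) and NOMO-1 (0.863 to 1.041). PKM, pyruvate kinase, went from 63967 to 51155 in MOLM-14, from 64628 to 50946 in NOMO-1 and from 71201 to 100321 in SKM-1, lower in 2 lines and higher in SKM-1. GAPDH, ENO1, LDHA, PGK1, PGAM1 and other enzymes have near-identical processed pseudogenes, and how reads shared with these were counted is not known here.

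The 18 enzymes together took 1.59% of gene-assigned reads in the MOLM-14 control and 1.32% in its knockdown. The share went from 1.41% to 0.943% in NOMO-1 and from 1.38% to 1.12% in SKM-1. All 3 knockdown shares were below all 3 control shares.

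Of the 3 regulators, 2 were lower in each line. PFKFB4 sets the level of fructose 2,6-bisphosphate, the main activator of phosphofructokinase, and went from 4280.0 to 2596 in MOLM-14, from 8287 to 1204 in NOMO-1 and from 4051 to 413 in SKM-1. This was 1.65-fold lower in MOLM-14 (95% counting interval 1.57 to 1.73), 6.88-fold lower in NOMO-1 (95% counting interval 6.49 to 7.296) and 9.81-fold lower in SKM-1 (95% counting interval 8.89 to 10.8), a mean log2 change of -2.26 ± 1.36 (n = 3 lines, SD; limma SE 0.53, unadjusted p = 0.00874). PDK1, the kinase that shuts pyruvate out of the citric acid cycle, went from 4987 to 3264 in MOLM-14, from 4708 to 2898 in NOMO-1 and from 3272 to 1616 in SKM-1, a change of -0.78 ± 0.21 (n = 3 lines, SD; limma SE 0.18, unadjusted p = 0.00752). For both genes every knockdown library was below every control. PFKFB3, which makes the same activator, had log2 changes of 0.46, 0.11 and -0.86 (MOLM-14, NOMO-1, SKM-1), so it was higher in 2 lines.

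**Figure D2:**
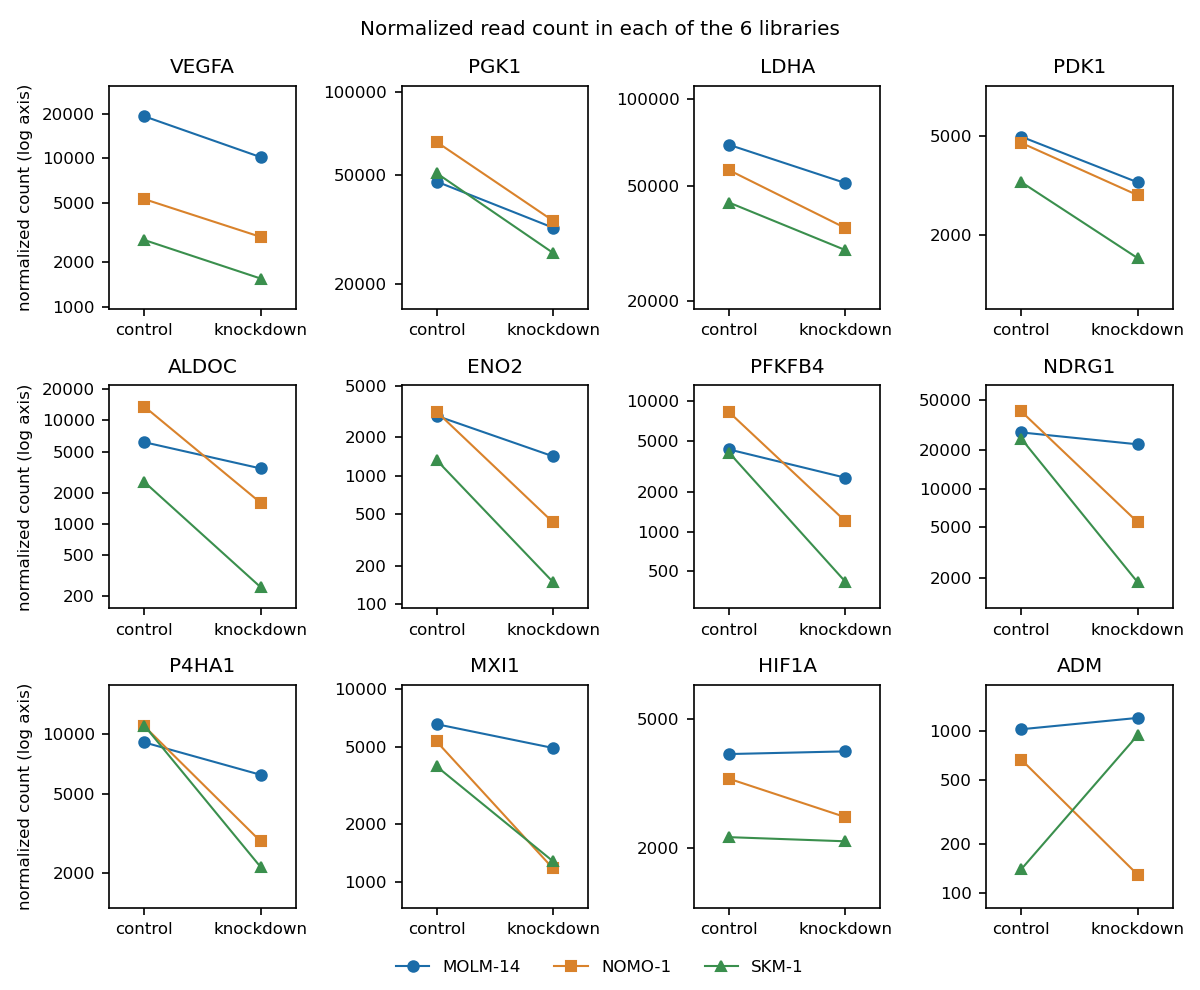
Normalized read counts (vertical log axes) of 12 genes in the control and knockdown library of each line, joined by a line per cell line. VEGFA, PGK1, LDHA and PDK1 slope down alike in the 3 lines, ALDOC to MXI1 slope down more steeply in NOMO-1 and SKM-1 than in MOLM-14, HIF1A is nearly level in MOLM-14 and SKM-1, and ADM goes down in NOMO-1 and up in SKM-1.

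Among the 13 HIF targets outside glycolysis, 8 were lower in each line, none was higher in each, and the median of the mean log2 changes was -0.87. VEGFA, the growth factor of blood vessels, had the most even change of these genes. It went from 19229 to 10202 in MOLM-14, from 5324 to 2962 in NOMO-1 and from 2824 to 1553 in SKM-1, a mean log2 change of -0.87 ± 0.04 (n = 3 lines, SD; limma SE 0.15, unadjusted p = 0.00249). Its log2 ratios lay between -0.91 and -0.85 although its level differed widely between lines. P4HA1, a collagen prolyl hydroxylase subunit, went from 9053 to 6222 in MOLM-14, from 10918 to 2879 in NOMO-1 and from 10998 to 2141 in SKM-1, a change of -1.61 ± 0.95 (n = 3 lines, SD; limma SE 0.38, unadjusted p = 0.00929). NDRG1, a stress-induced gene strongly raised by hypoxia, went from 27644 to 22284 in MOLM-14, from 40431 to 5437 in NOMO-1 and from 24674 to 1833 in SKM-1, a change of -2.32 ± 1.79 (n = 3 lines, SD; limma SE 0.68, unadjusted p = 0.0204). NDRG1 was 1.24-fold lower in MOLM-14 (95% counting interval 1.22 to 1.26), against 7.44-fold lower in NOMO-1 (95% counting interval 7.24 to 7.64) and 13.5-fold lower in SKM-1 (95% counting interval 12.9 to 14.1). MXI1, a MAX partner that opposes MYC, went from 6599.6 to 4965 in MOLM-14, from 5365 to 1174 in NOMO-1 and from 3981 to 1279 in SKM-1, a change of -1.41 ± 0.91 (n = 3 lines, SD; limma SE 0.37, unadjusted p = 0.0138). In each of these genes but VEGFA the MOLM-14 ratio was the nearest to 0.

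The mitophagy receptors BNIP3 and BNIP3L, which mark mitochondria for removal, differed in MOLM-14. BNIP3L went from 9081 to 6845 in MOLM-14, from 12257 to 6039.5 in NOMO-1 and from 4983 to 2509 in SKM-1, a change of -0.81 ± 0.35 (n = 3 lines, SD; limma SE 0.20, unadjusted p = 0.01004). BNIP3 went from 4466 to 4744 in MOLM-14, from 3768 to 1014 in NOMO-1 and from 3719.8 to 1114 in SKM-1, level in MOLM-14 and 3.72-fold and 3.34-fold lower in NOMO-1 and SKM-1. ANKRD37, a small ankyrin repeat gene, had log2 changes of -0.27, -0.44 and -1.93 (MOLM-14, NOMO-1, SKM-1), a mean of -0.88 ± 0.91 (n = 3 lines, SD; limma SE 0.43, unadjusted p = 0.0976), and without the SKM-1 pair its mean was -0.36. In MOLM-14 the ANKRD37 ratio of knockdown over control was 0.826 (95% counting interval 0.654 to 1.041), which includes no change. CA9, the hypoxia-induced surface carbonic anhydrase, was low outside MOLM-14. It was 3.14-fold lower in MOLM-14 (95% counting interval 2.56 to 3.86). It went from 81 reads to 1 in NOMO-1, a ratio of 83.9 (95% counting interval 14.6 to 3353). In SKM-1 it had 1 read in the control and 0 in the knockdown, which allows no comparison, so its place among the genes lower in each line rests on 1 read. Its mean of -2.67 ± 2.34 (n = 3 lines, SD; limma SE 0.95, unadjusted p = 0.0391) depends on the pseudocount.

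KDM3A, a histone demethylase induced by hypoxia, was lower in each line with a mean of -0.40 ± 0.42. The oxygen sensors of the pathway differed between lines. EGLN1, the main HIF prolyl hydroxylase, went from 10426 to 10577 in MOLM-14, from 4237 to 3098 in NOMO-1 and from 9121 to 4389 in SKM-1. EGLN3, the hydroxylase most strongly induced by hypoxia, went from 104 to 108 in MOLM-14, from 975 to 255 in NOMO-1 and from 26.4 to 99.2 in SKM-1, lower in NOMO-1, higher in SKM-1 and level in MOLM-14. ADM, the vasodilator peptide adrenomedullin, went from 1029 to 1209.9 in MOLM-14, from 668 to 129.6 in NOMO-1 and from 140.2 to 947 in SKM-1. ADM was 5.15-fold lower in NOMO-1 (95% counting interval 4.299 to 6.22) and 6.75-fold higher in SKM-1 (95% counting interval 5.65 to 8.12). Under a count limit, ADM was the 1 gene of the 38 at least 2-fold lower in 1 line and at least 2-fold higher in another. The limit was 100 or more normalized counts in 1 library of each line, which EGLN3 missed in SKM-1. Of all tested genes 1.02% met this rule, but these include genes too low to reach the limit. P4HA2, a paralog of P4HA1, had log2 changes of 0.36, -0.87 and 0.53 (MOLM-14, NOMO-1, SKM-1), with few reads in MOLM-14 (10 and 14). The messenger of HIF1A itself went from 3893 to 3968 in MOLM-14, from 3270.1 to 2492 in NOMO-1 and from 2163 to 2101 in SKM-1, a mean log2 change of -0.14 ± 0.22 (n = 3 lines, SD; limma SE 0.18, unadjusted p = 0.485). It was nearly level in MOLM-14 and SKM-1 and lower in NOMO-1.

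Set side by side, the enzymes and the other HIF targets differed by line. The median log2 ratio of the 18 enzymes was -0.33, -0.55 and -0.52 (MOLM-14, NOMO-1, SKM-1). That of the 13 HIF targets outside glycolysis was -0.27, -1.89 and -1.01 (MOLM-14, NOMO-1, SKM-1). The 2 groups had like medians in MOLM-14, and in NOMO-1 and SKM-1 the HIF targets were lower. Over all tested genes the medians were 0.0, -2.7e-04 and -0.01. Taken over lines, the mean of the line medians was -0.47 ± 0.12 (SD, n = 3 lines) for the enzymes and -1.06 ± 0.81 for the HIF targets. Both groups come from the same 3 lines, so these SDs do not give the spread of the difference between the groups. Within lines, the HIF targets had the lower median in NOMO-1 and SKM-1 but not in MOLM-14, and the difference was not tested. With 3 lines an exact sign-flip test cannot go below p = 0.25.

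In MOLM-14, 2 of the 37 genes with 100 or more normalized counts in 1 of its libraries were at least 2-fold lower, against 1.4% of all such genes. In NOMO-1 there were 12 of 36 (33.3%), against 5.66%. In SKM-1 there were also 12 of 36 (33.3%), against 14.9%. The 2-fold decreases in NOMO-1 thus stood furthest from their background. At least 2-fold higher were none of these genes in MOLM-14 (all genes 0.753%) or NOMO-1 (2.06%), and in SKM-1 2 of 36, HK1 and ADM (all genes 13.9%). Over the 38 genes, Pearson's r between the log2 ratios of a pair of lines was 0.568 between MOLM-14 and NOMO-1, 0.37 between MOLM-14 and SKM-1 and 0.323 between NOMO-1 and SKM-1. Over all 19575 tested genes these were 0.153, -0.037 and 0.129. Spearman's rank correlations, in the same order, were 0.419, 0.312 and 0.297 over the 38 genes and 0.215, -0.005 and 0.112 over all tested genes. Genes of 1 library share its depth and scaling and are not independent, so these are descriptions.

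**Figure D3:**
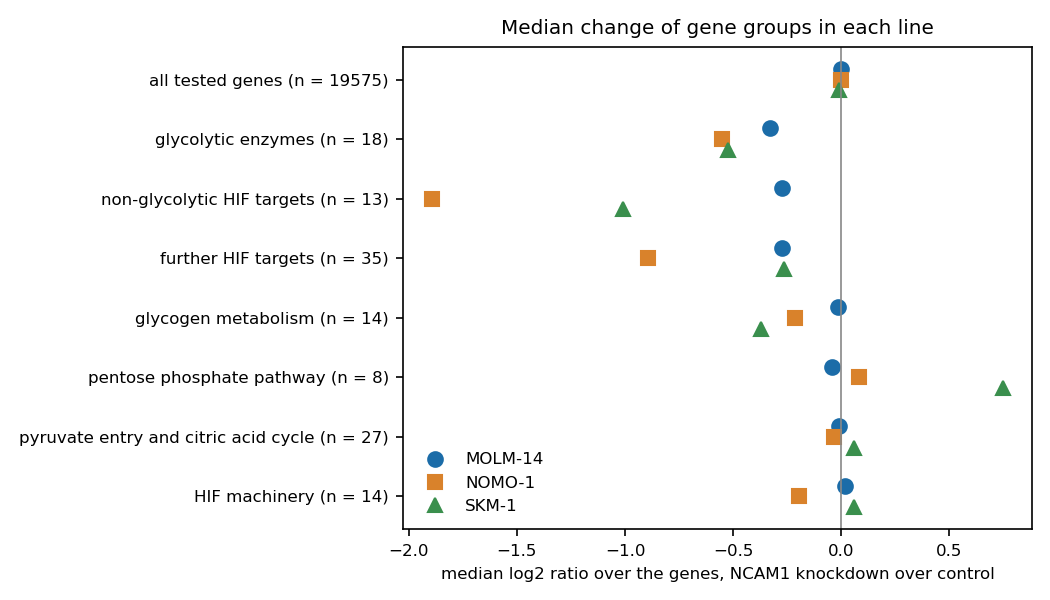
Median log2 ratio of knockdown over control (horizontal axis) of 8 gene groups (rows, with the number of tested genes), with 1 symbol per line. Glycolytic enzymes and both groups of HIF targets lie left of 0 in each line, citric acid cycle genes lie near 0, and the HIF machinery lies on both sides of it.

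Other genes around these pathways were described from lists, none of whose genes passed limma in either direction. The counts below are to be set beside all tested genes, of which 15.9% were lower and 14.6% higher in each line. Genes named from these lists were mostly picked for the smallest p. Of 35 further HIF targets that could be tested, 16 were lower and 1 higher in each line, with a median mean log2 change of -0.55. SLC6A8, the creatine transporter, was at -2.30 ± 0.88 (SD, n = 3 lines) and was called by DESeq2 (adjusted p = 6.30e-04). AK4, a mitochondrial adenylate kinase, was at -0.88 ± 0.24, ERO1L, an oxidase of the endoplasmic reticulum, at -0.76 ± 0.25, and HILPDA, a lipid droplet protein, at -1.19 ± 0.61. Of 14 glycogen genes, 5 were lower and 0 higher in each line. These included GYS1 (glycogen synthase, -1.40 ± 0.70), GBE1 (branching enzyme, -1.62 ± 0.91; DESeq2 adjusted p = 0.0479), PGM1 (phosphoglucomutase, -1.23 ± 0.86) and PYGL (glycogen phosphorylase, -0.54 ± 0.46). The other 9 glycogen genes were mixed between lines. Of all 14, 6 had a mean above 0, and the median was -0.26.

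In neighbouring pathways the directions were mixed. Here too the counts are to be set beside the 15.9% lower and 14.6% higher in each line among all tested genes. Of 27 genes of pyruvate entry and the citric acid cycle, 6 were lower and 5 higher in each line, with a median of -0.04; FH (fumarase) was at 0.35 ± 0.13, SUCLG1 at 0.33 ± 0.23, DLD at 0.29 ± 0.17 and CS (citrate synthase) at -0.36 ± 0.40. Of 8 pentose phosphate genes, 1 was lower and 2 were higher in each line (median 0.19), with H6PD at -0.99 ± 0.88 and TALDO1 at 0.70 ± 0.74. Of 14 genes of the HIF machinery, 3 were lower and 3 higher in each line, and 8 had a mean above 0 (median 0.05). SIAH2, a ubiquitin ligase of the HIF hydroxylases, was at -0.37 ± 0.03. CITED2, an inhibitor of HIF activity, was at -0.62 ± 0.65, and VHL, which binds hydroxylated HIF1A for destruction, at -0.25 ± 0.11. The genes named here thus had lower means, unlike most of their list. Of 8 tested isoforms of glycolysis beyond the 38, 1 was lower and 2 were higher in each line (median -0.06). Of 12 other sugar and monocarboxylate transporters these numbers were 2 and 3 (median -0.11), and of 4 gluconeogenesis genes 0 and 1 (median 0.19). TXNIP and ARRDC4, which respond to glucose, were at -0.11 ± 0.76 and 0.04 ± 0.74, higher in SKM-1 and lower in the other lines.

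The balance of paralogs differed between control and knockdown for several enzymes. Levels per kilobase of transcript were used to compare genes, with 1 principal transcript length per gene. ENO2 made up 1.55% of ENO2 and ENO1 together in the MOLM-14 control and 0.9098% in its knockdown, 1.42% and 0.317% in NOMO-1, and 0.738% and 0.115% in SKM-1. The log2 ratio of ENO2 over ENO1 differed by -1.88 ± 0.99 (SD, n = 3 lines), lower in each knockdown library than in its control. ALDOC over ALDOA differed by -1.87 ± 1.21 (SD, n = 3 lines) and PFKFB4 over PFKFB3 by -2.17 ± 0.89 (SD, n = 3 lines), both lower in each line. PFKFB4 made up 81.3%, 83.7% and 65.8% of its pair in the controls (MOLM-14, NOMO-1, SKM-1) and 65.7%, 40.8% and 26.2% in the knockdowns. PFKFB4 was thus the larger of the pair in every control and the smaller in the knockdowns of NOMO-1 and SKM-1. HK2 over HK1 differed by -0.60 ± 0.43 (SD, n = 3 lines) and LDHA over LDHB by -0.62 ± 0.44 (SD, n = 3 lines), again lower in each line. P4HA2 over P4HA1 was higher in each, by 1.62 ± 1.11 (SD, n = 3 lines). ENO3 over ENO1 was higher in each line by 0.29 ± 0.28 (SD, n = 3 lines). For these 7 pairs an exact sign-flip test, two-sided, gave p = 0.25 (n = 3 lines), the smallest possible, before any adjustment for 12 pairs. Any pair with 1 sign in all 3 lines reaches this value, so it adds nothing to the count of 7. Of all tested single genes, 15.9% were lower and 14.6% higher in each line, and no such share was counted for pairs. The other 5 pairs (PFKP and PFKM over PFKL, SLC2A3 over SLC2A1, BNIP3 over BNIP3L, EGLN3 over EGLN1) differed in sign between lines.

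**Figure D4:**
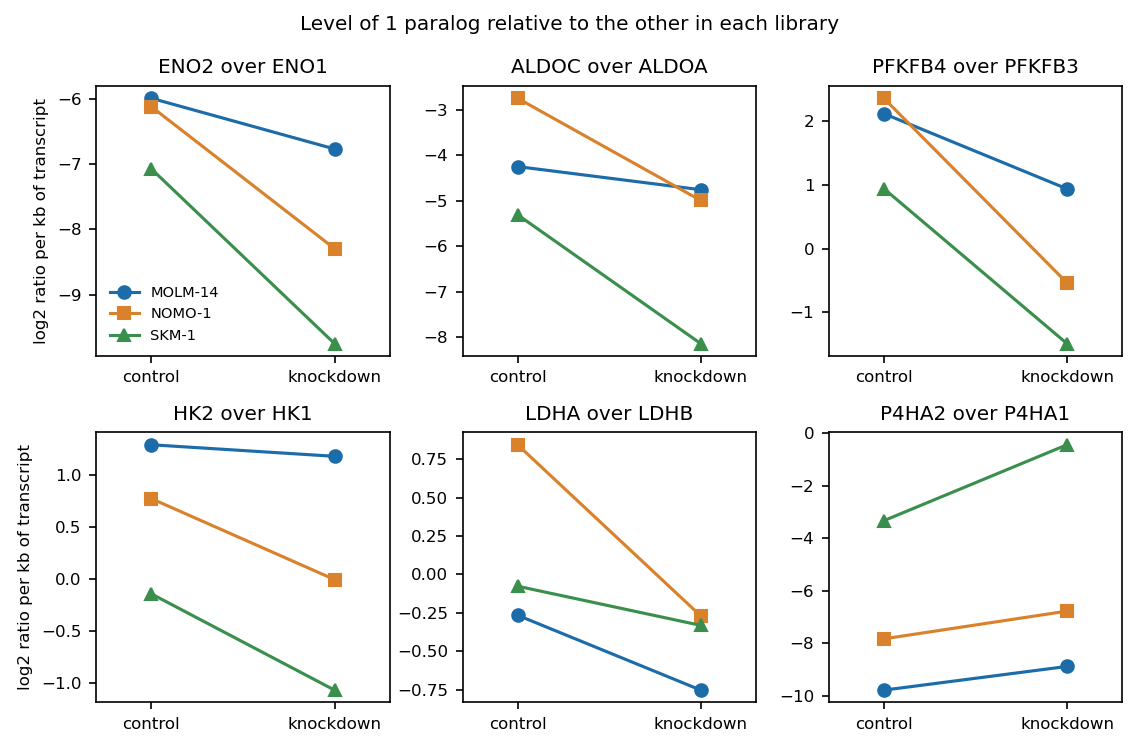
Log2 ratio of 1 paralog over another, per kilobase of transcript (vertical axes, each with its own range), in the control and knockdown library of each line. The first 5 panels slope down in each line, most for ENO2, ALDOC and PFKFB4 in NOMO-1 and SKM-1, and the panel of P4HA2 over P4HA1 slopes up.

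The promoters of the 38 genes were read for the HIF core, ACGTG or GCGTG. RefSeq windows (GRCh38.p14, 250 bases before to 50 after the gene start) were matched for 34 of the 38, not for VEGFA, NDRG1, BNIP3L and SLC2A3. The windows below are those of the 4 matched genes with the lowest mean log2 changes and of ADM and LDHB, 2 of the 4 whose means were above 0. The other two, HK1 and P4HA2, hold neither ACGTG nor GCGTG and are not printed. They are written 5′ to 3′ in the direction of the gene, with capitals at every ACGTG and GCGTG on either strand (CACGT and CACGC on the printed strand).
CA9 (chr9:35673678-35673977, plus strand): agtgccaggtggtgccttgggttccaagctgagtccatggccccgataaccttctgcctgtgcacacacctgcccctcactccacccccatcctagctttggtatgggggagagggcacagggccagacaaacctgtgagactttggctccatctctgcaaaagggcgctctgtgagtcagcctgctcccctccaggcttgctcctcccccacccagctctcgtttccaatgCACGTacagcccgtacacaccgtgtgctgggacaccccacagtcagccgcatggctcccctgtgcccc
ALDOC (chr17:28576846-28577145, minus strand): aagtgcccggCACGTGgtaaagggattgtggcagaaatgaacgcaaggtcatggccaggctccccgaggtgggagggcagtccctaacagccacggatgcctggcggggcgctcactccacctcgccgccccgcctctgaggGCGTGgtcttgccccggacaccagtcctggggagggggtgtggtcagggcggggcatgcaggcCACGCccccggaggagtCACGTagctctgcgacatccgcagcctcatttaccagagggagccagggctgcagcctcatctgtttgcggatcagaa
ENO2 (chr12:6914330-6914629, plus strand): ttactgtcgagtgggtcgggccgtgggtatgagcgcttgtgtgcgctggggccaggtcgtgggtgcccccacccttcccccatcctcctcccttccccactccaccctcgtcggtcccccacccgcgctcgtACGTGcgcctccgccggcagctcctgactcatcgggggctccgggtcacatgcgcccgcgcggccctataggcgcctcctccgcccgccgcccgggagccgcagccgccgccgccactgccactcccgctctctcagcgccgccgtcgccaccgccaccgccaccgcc
PFKFB4 (chr3:48556754-48557053, minus strand): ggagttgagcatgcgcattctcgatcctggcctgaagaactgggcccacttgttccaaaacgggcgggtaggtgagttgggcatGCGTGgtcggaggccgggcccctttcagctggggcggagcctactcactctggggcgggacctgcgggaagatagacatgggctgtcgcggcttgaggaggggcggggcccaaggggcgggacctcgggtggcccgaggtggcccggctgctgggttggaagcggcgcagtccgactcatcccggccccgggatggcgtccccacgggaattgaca
ADM (chr11:10304823-10305122, plus strand): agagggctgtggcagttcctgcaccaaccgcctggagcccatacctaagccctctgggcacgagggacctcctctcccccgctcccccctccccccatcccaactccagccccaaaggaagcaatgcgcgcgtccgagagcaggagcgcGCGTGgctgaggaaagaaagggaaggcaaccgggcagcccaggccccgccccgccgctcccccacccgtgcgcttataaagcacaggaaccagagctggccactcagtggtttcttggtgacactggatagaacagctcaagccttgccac
LDHB (chr12:21657793-21658092, minus strand): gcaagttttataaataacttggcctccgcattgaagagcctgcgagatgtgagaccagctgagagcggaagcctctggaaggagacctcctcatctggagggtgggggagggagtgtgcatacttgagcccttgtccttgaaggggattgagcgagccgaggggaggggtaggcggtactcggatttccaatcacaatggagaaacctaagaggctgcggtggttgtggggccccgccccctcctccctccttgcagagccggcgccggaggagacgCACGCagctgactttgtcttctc
CA9 and ENO2 each hold 1 ACGTG, ALDOC holds 3 ACGTG and 2 GCGTG, and PFKFB4, ADM and LDHB hold 1 GCGTG each and no ACGTG. Of the 3 ACGTG matches in ALDOC, 2 are the strands of 1 CACGTG, the palindrome that MYC and its partners also bind. A window with ACGTG was found for 13 of 34 matched genes (38.2%), 8 of 18 enzymes and 5 of 10 other HIF targets. Among all 35116 windows the share was 21.4%, and among 10818 windows of tested genes 26.1%. GCGTG stood in 16 of the 34 (47.1%), against 36.5% of all windows and 49.5% of those of tested genes. The median of the mean log2 changes was -0.87 for the 13 genes with ACGTG (range -2.67 to -0.20) and -0.28 for the 21 without (-2.26 to 0.21), with wide overlap. The 21 include genes with GCGTG alone, among them PFKFB4, ADM and LDHB, so this does not split the genes by the HIF core. Genes with GCGTG ran from -2.44 (ALDOC) to 0.21 (ADM). Those without it ran from -2.67 (CA9) to 0.18 (HK1). Many of the 38 were listed because they are HIF targets, so their share of windows with a core does not speak to the knockdown. A match of letters is not a bound site, and binding was not measured. Whether HIF had a part in the lower levels was not tested.

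The 3 lines also differed in the level of single genes whatever the shRNA. In limma contrasts of lines, a call needed an adjusted p under 0.05 and a 2-fold difference. MOLM-14 and NOMO-1 differed in 6 of the 38 (all genes 13.3%), MOLM-14 and SKM-1 in 6 (15.9%), and NOMO-1 and SKM-1 in 4 (13.7%). In each contrast the share of the 38 was near that of all genes, so such differences were about as frequent here as elsewhere. The 2 libraries of a line differ in their shRNA and are not full replicates.

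PFKM was lowest in MOLM-14 (129 and 96.04), higher in SKM-1 (1099 and 656) and highest in NOMO-1 (2376 and 3014). All 3 steps of that order were called, the largest between MOLM-14 and NOMO-1 (log2 difference -4.57, SE 0.35, adjusted p = 0.00482 in limma). GAPDH was higher in MOLM-14 (145946 and 123418) than in NOMO-1 (39980.3 and 32651; log2 difference 1.89, SE 0.18, adjusted p = 0.00693 in limma), with SKM-1 between them. VEGFA was higher in MOLM-14 than in NOMO-1 (log2 difference 1.82, SE 0.19, adjusted p = 0.00821 in limma) and SKM-1 (log2 difference 2.74, SE 0.19, adjusted p = 0.00314 in limma). The MOLM-14 knockdown, at 10202, was still above the controls of the other lines. P4HA2 was nearly limited to SKM-1, with 1290.4 and 1863 there and 11.2 to 55.7 elsewhere (log2 difference -6.82, SE 0.49, adjusted p = 0.00346 in limma, MOLM-14 over SKM-1; log2 difference -5.21, SE 0.49, adjusted p = 0.00593 in limma, NOMO-1 over SKM-1). EGLN1 was higher in MOLM-14 than in NOMO-1 (log2 difference 1.53, SE 0.31, adjusted p = 0.0396 in limma), and so were PFKL and LDHB (adjusted p = 0.0292 and 0.0395). KDM3A was higher in MOLM-14 than in SKM-1 (log2 difference 1.32, SE 0.27, adjusted p = 0.0365 in limma). BNIP3L was lower in SKM-1 than in MOLM-14 (log2 difference 1.16, SE 0.24, adjusted p = 0.0393 in limma) and NOMO-1 (log2 difference 1.28, SE 0.24, adjusted p = 0.0329 in limma). The call of CA9 between MOLM-14 and SKM-1 (adjusted p = 0.0204 in limma) rests on 1 read in the SKM-1 libraries.

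**Figure D5:**
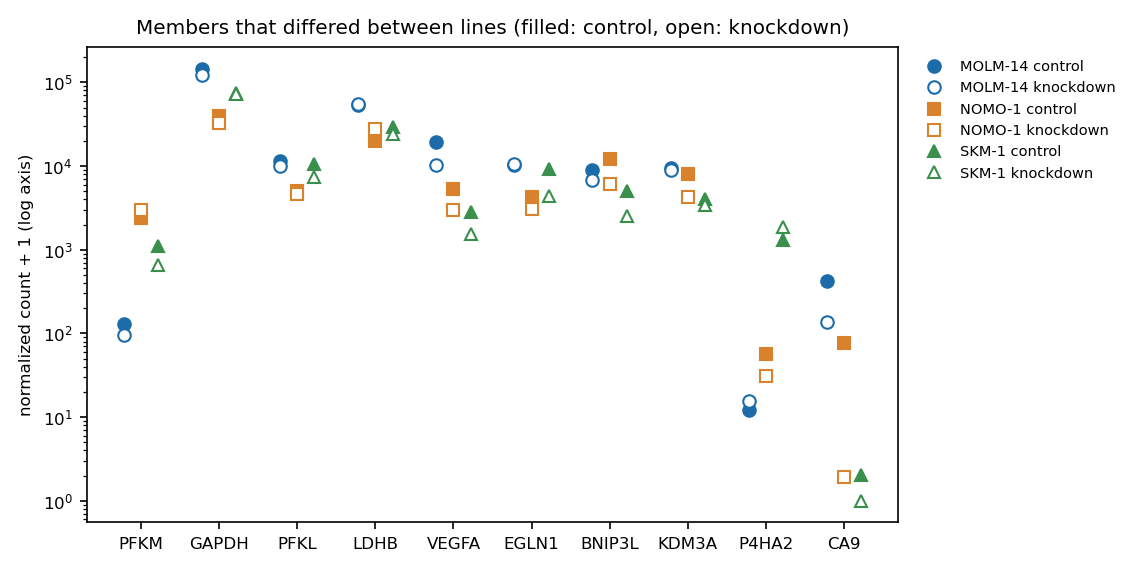
Normalized count + 1 (vertical log axis) of the 10 genes called in a contrast of lines, with filled symbols for control and open symbols for knockdown libraries. PFKM and P4HA2 differ between lines by far more than between the 2 libraries of a line, and CA9 is near 1 in both SKM-1 libraries.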

How the data were processed

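The authors deposited signal values that behave as reads per gene over a size factor of each library, and log2 values made from them by a transformation they do not name. The submitters' processing notes list DESeq2 1.12.4, HTSeq 0.6.1p1, STAR, bcl2fastq 1.8.4 and the build hg19, and give no settings. No source used here says whether counting used the strand, and genes that overlap may share reads.

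Dividing each column by its smallest step gave whole reads for 100% of values (tolerance 0.001). The 19575 genes whose normalized counts averaged at least 10 were tested with limma 3.58.1 in R 4.3.3 (eBayes, trend on, two-sided) on log2(normalized count + 1), blocking on the cell line, with Benjamini-Hochberg adjustment over all of them. Samples were paired by cell line, and the deviations from group means correlated at 0.85, 0.863 and 0.71 within MOLM-14, NOMO-1 and SKM-1. Ratios within a line have exact conditional 95% intervals from recovered reads. Alternatives were other pseudocounts, filters, scalings and eBayes options, the authors' transformed values, edgeR 4.0.16 and DESeq2 1.42.0 on recovered reads, no block, GC and length correction, and leaving out each line. Transcript lengths and GC content came from GENCODE on GRCh38, so no coordinates were joined to the counts.

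On simulated data with the depths of 19575 genes, the knockdown fit recovered 1 of 67 genes set to differ 2-fold, 15 of 67 at 4-fold and 42 of 66 at 8-fold, with 4 false calls. The genes and lists were chosen with earlier results of these data known. Full statistics were given for genes lower or higher in each line with a mean log2 change of at least 0.58 in size, for genes at least 2-fold apart in opposite directions between lines, for the largest differences between lines, and for a few abundant enzymes beside them, added after their values were seen. From each other list up to 4 genes with the smallest p and a mean of 50 or more were named, plus TXNIP and ARRDC4. Protein sequences were not used here.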

Additional observations from a re-analysis of the deposited data

Results flagged for a closer look

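ADM differed in direction between 2 lines, at a log2 change of -2.36 in NOMO-1 and 2.75 in SKM-1, with 0.23 in MOLM-14. Under a count limit, it was the 1 gene of the 38 at least 2-fold lower in 1 line and at least 2-fold higher in another. The limit was 100 or more normalized counts in 1 library of each line. Of all tested genes 1.02% met this rule, but these include genes too low to reach the limit. The difference between lines was not tested, since each line has 1 library per condition. EGLN3 had log2 changes of -1.93 in NOMO-1 and 1.87 in SKM-1, but its higher SKM-1 library was at 99.2 normalized counts.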

How the results depend on the processing

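The medians of the enzymes and of the other HIF targets moved by less than 1 SD of the 3 line medians under all 17 alternatives. Several of these could not move them: the filters, the eBayes options and dropping the block leave the log2 changes of these genes as they are. The margin was also wide for the HIF targets, with an SD of 0.81 against 0.12 for the enzymes. With a line left out the medians ran from -0.54 to -0.36 for the enzymes and from -1.01 to -0.83 for the HIF targets. With the 3 lines, 23 of the 38 were lower in each under total-count scaling and 22 under quantile normalization, against 24. No gene was called under 16 alternatives; DESeq2 called 43, with 4 of the 38. The number of genes at an unadjusted p under 0.05 was 1405 with no filter, and with no replicate block it was 141, of which 6 of the 38. With a line left out it ran from 223 (without NOMO-1) to 1389 (without SKM-1), and for the 38 from 3 (without NOMO-1) to 16. Without the block the line differences enter the error by construction; the cause of the other moves was not tested. The mean of ADM was -1.06 without the SKM-1 pair and 1.49 without the NOMO-1 pair. Genes of the 38 called between lines numbered 11, 12 and 7 with DESeq2, against 6, 6 and 4. They were 3 (MOLM-14 over NOMO-1) with quantile normalization, 2 (NOMO-1 over SKM-1) with no filter, and 3 and 1 for these 2 contrasts without a trend. Depth limits genes with few reads, among them CA9 in NOMO-1 and SKM-1, P4HA2 in MOLM-14 and NOMO-1, EGLN3 in MOLM-14 and SKM-1, PFKM in MOLM-14 and ANKRD37.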

Other observations

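In SKM-1 sugar-handling genes outside the 38 lay on both sides, beside 13.9% of all genes at least 2-fold higher and 14.9% at least 2-fold lower there. PGD, a dehydrogenase of the pentose phosphate pathway, went from 9688 to 44026 in that line, and TKT, transketolase, from 19574 to 44973. In MOLM-14 and NOMO-1 the log2 changes of these 2 genes lay between -0.75 and 0.34. HK3, the myeloid hexokinase, went from 427 to 5074 in SKM-1 and from 1770.1 to 577 in NOMO-1. PFKFB2, a further source of fructose 2,6-bisphosphate, went from 190.0 to 1778 in SKM-1, from 273 to 42.9 in NOMO-1 and from 3.35 to 0 in MOLM-14. HMOX1, heme oxygenase, went from 12.2 to 1308 in SKM-1. Lower in that line were SLC2A5, the fructose transporter, from 7192 to 434, PGM1, phosphoglucomutase, from 3192 to 719, and H6PD, the pentose phosphate dehydrogenase of the endoplasmic reticulum, from 5121 to 1333. With 1 library per line and condition these differences have no test, and the genes were picked after their values were seen.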
